A study of Mus musculus with 12 samples.

Results

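The interferon response genes described here are 9 named members of the 25700 genes in the RNA table of mouse Th2 cells. Th2 cells are CD4 T cells whose cytokines, such as IL-4 and IL-13, act in allergy. The members were picked out by symbol, from a list drawn up with earlier results of these data known. They are Stat2, Irf1, Irf7, Irf9, Isg15, Isg20, Ifit1, Ifit3 and Bst2, and all 9 were found. Over them, 17 of the 114463 merged open chromatin regions were found, and these were chosen by position on mm10. The study, which asks about NRF2 in the T cells of allergic asthma, labels its libraries cKO (conditional knockout) or WT (wild type). RNA-seq was made from 3 cKO-labelled and 3 WT libraries, and ATAC-seq, in which a transposase cuts and tags accessible DNA, from 3 cKO-labelled and 3 others labelled WT. The labels give no strain, age, sex, Cre driver or deleted exon, and no treatment or control allele that the groups share. They do not say that the replicates came from separate mice, so the p-values measure the spread between these libraries, which may be technical.

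Interferons are secreted proteins that cells release on sensing viral or stray nucleic acid. Type I interferons bind a receptor whose kinases, JAK1 and TYK2, activate STAT2. With IRF9 it forms part of a complex that binds a short DNA element, the interferon-stimulated response element (ISRE), in front of many genes. Interferon gamma acts through another element, the gamma-activated site (GAS). In T cells the same genes are expressed at a tonic level without infection, and interferon gamma is the product of Th1 cells, the lineage that Th2 cells oppose.

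The promoter windows below show these elements in the members, since the ATAC results concern whether they lie in open chromatin. Each window is RefSeq sequence of GRCm38.p6 from 250 bases before to 50 bases after a transcription start, and 32851 such windows of 27025 genes were available, 13 of them for the 9 members. The letters GAAA, any 2 bases and GAAA again, on either strand, stood for the ISRE. They were found in 5 of the 9 members (Stat2, Isg15, Ifit1, Ifit3 and Bst2), against 3.99% of all genes with a window. The letters TTCNNNGAA, which read the same on both strands, stood for the GAS. They were found in Irf1, Isg20 and Bst2, against 9.55% of all genes. The letters TGACNNNGC, on either strand, which NRF2 sites share, were found in a window of Isg20 and one of Irf7, against 14.0% of all genes. A match of letters describes the window and does not show binding.

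In Isg15 (chr4:156200769-156201068, minus strand), 3 overlapping ISRE matches ran from 78 to 57 bases before the start. In Bst2 (chr8:71537423-71537722, minus strand), 2 overlapping ISRE matches ran from 130 to 115 bases before it, and a GAS match from 136 to 128 overlapped the first of them. In Ifit1 (chr19:34640639-34640938, plus strand) and Ifit3 (chr19:34583279-34583578, plus strand), 2 separate ISRE matches each lay on the opposite strand, beginning 104 and 85 bases before the start of Ifit1 and 156 and 122 before that of Ifit3. The 1 match of Stat2 began 222 bases before its start. Capitals mark the ISRE matches in these 4 windows:
Isg15: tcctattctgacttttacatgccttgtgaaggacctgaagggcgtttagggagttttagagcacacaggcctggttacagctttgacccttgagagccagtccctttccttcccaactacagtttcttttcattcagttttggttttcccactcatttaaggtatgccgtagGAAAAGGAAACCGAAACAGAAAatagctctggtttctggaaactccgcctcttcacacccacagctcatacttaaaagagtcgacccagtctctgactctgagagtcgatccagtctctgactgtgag
Bst2: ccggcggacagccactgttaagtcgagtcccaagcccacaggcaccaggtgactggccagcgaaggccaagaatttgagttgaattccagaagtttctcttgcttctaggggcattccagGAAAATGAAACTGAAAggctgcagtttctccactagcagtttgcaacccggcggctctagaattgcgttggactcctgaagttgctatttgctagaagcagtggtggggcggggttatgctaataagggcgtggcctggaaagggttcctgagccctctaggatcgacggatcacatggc
Ifit1: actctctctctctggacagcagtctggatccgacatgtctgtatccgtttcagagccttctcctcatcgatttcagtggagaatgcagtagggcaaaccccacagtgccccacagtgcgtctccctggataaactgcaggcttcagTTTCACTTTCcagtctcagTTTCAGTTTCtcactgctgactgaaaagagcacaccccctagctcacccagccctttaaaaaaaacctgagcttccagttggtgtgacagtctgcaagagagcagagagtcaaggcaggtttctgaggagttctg
Ifit3: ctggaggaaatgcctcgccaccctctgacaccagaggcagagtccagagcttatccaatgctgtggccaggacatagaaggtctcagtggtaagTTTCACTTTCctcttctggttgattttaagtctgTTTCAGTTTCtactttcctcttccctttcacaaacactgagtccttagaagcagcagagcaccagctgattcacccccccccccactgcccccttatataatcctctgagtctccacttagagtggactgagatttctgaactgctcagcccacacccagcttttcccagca
In Irf1 (chr11:53769764-53770063, plus strand) the GAS match ran from 90 to 82 bases before the first of 2 starts. In Isg20 (chr7:78913174-78913473, plus strand) it ran from 73 to 65 bases before the first of 3 starts. Capitals mark the GAS matches in these 2 windows, of which that of Isg20 lies in the 1 region whose ATAC tags passed the test:
Irf1: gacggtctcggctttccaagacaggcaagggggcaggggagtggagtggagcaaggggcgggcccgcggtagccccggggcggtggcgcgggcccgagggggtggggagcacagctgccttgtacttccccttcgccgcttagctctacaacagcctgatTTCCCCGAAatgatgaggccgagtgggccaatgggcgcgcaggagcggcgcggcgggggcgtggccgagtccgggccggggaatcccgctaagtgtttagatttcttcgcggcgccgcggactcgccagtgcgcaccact
Isg20: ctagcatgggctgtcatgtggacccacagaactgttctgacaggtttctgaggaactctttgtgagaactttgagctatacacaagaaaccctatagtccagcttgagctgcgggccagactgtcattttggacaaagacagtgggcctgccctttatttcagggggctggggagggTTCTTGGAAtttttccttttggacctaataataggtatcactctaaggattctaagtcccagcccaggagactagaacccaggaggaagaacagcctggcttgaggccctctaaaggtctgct

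RNA libraries totalled 6431081 to 7372007 normalized counts and ATAC libraries 13149952 to 18327127 tags, of which 25.22% (WT replicate 2) to 38.28% lay in peaks. The number of RNA reads is unknown, since the table holds normalized values. Markers of T cells were detected for 8 of 8 genes, with sums of 16480 to 22111 normalized counts in cKO-labelled and 18432 to 19991 in WT libraries. Groups lay apart for 17.2% of all tested genes, and here for Cd3d (log2 change -0.46), Lat (-0.46) and Cd3e (0.34). The 7 Th2 markers summed to 2482 to 3406 in cKO-labelled and 2700 to 3377 in WT libraries. Il4 and Il5 had means of 2.23 and 6.25 and were not tested. Log2 changes were -1.04 for Il13 (limma adjusted p = 0.0834, groups apart), -0.48 for Il1rl1, 0.005 for Gata3, 0.37 for Ccr4 and 0.36 for Il4ra. Nfe2l2, the gene of NRF2, had 453, 326 and 392 normalized counts in the cKO-labelled libraries and 170, 155 and 147 in WT libraries, so the groups did not overlap. It was higher, not lower, in the libraries labelled cKO (log2 change 1.29, SE 0.22, limma adjusted p = 0.0438), and the labels do not name the deleted gene. Leaving out WT replicate 2 or 3 gave an adjusted p of 0.0989 or 0.215, and leaving out cKO replicate 1 or 3 gave 0.328 or 0.219. It was also 0.0565 with cyclic loess scaling and 0.446 without a mean-variance trend. In the authors' deposited table the adjusted p of Nfe2l2 was 2.32e-05. The Y-linked genes Ddx3y and Eif2s3y had 0 in each of the cKO-labelled libraries and 117 to 140 normalized counts in WT libraries. Xist, which is expressed from the inactive X chromosome, had 4331 to 7069 in cKO-labelled and 3174 to 4047 in WT libraries. These genes moved with the groups, the labels give no sex, and the part of sex in the results below was not tested.

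None of the 8 members that could be tested was called different between the genotypes in RNA. The threshold was an adjusted p of 0.05 in limma, a linear model fitted across all 18074 genes whose mean reached 10 normalized counts. By that threshold 37 genes, or 0.205%, were called, 0.0332% as higher and 0.172% as lower. That is 6 genes higher and 31 lower, and with quantile normalization the split was 17 and 16. Bst2 was the 1 member with an unadjusted p under 0.05, a level that 12.1% of all genes reached. Of the members, 6 had negative and 2 positive log2 changes, while 45.0% of all tested genes had a negative one. Changes are cKO-labelled over WT, on the scale of log2 of the value plus 1. The median was -0.17 for the members, against 0.06 over all tested genes. The authors' deposited table gave an adjusted p for 5 members, and 0 of these passed, while 5.68% of all genes with one did.

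STAT2 and IRF9, the partners that carry the type I signal to the ISRE, had the 2 positive changes. Stat2 (chr10:128270498-128292853) had 88.6, 228 and 97.1 normalized counts in the cKO-labelled libraries, against 75.7, 128 and 81.9 in WT libraries. Replicate 2 was the highest library of each group, and the groups overlapped. The log2 change was 0.43 (SE 0.38, 95% interval -0.39 to 1.25, limma adjusted p = 0.694), and without cKO replicate 2 it was 0.0019. Irf9 (chr14:55603985-55610030) had 216, 143 and 254 normalized counts in the cKO-labelled libraries and 142, 177 and 159 in WT libraries. Here replicate 2 was the lowest of the cKO-labelled libraries and the highest of WT, and the log2 change was 0.33 (SE 0.27, interval -0.25 to 0.91, limma adjusted p = 0.668). It was 0.15 without cKO replicate 3 and 0.56 without cKO replicate 2. The span of Stat2 overlaps that of Apof, and the sources used here do not say whether reads were counted by strand.

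Irf1 and Irf7 encode transcription factors that are themselves induced by interferons. IRF1 is induced mainly by interferon gamma, and IRF7 is the factor that amplifies interferon alpha production. Irf1 (chr11:53770014-53778374) had 227, 179 and 213 normalized counts in the cKO-labelled libraries, against 254, 219 and 261 in WT libraries. The highest cKO-labelled library lay above the lowest of WT, so the groups overlapped (log2 change -0.25, SE 0.22, interval -0.73 to 0.23, limma adjusted p = 0.697). Irf7 (chr7:141263183-141266499) was at 13.2, 12.2 and 23.8 in the cKO-labelled libraries and at 18.0, 28.5 and 43.8 in WT libraries. Its log2 change of -0.81 was the farthest from 0 among the tested members, and its interval the widest, from -2.04 to 0.42 (SE 0.57, limma adjusted p = 0.607). The interval therefore takes in a fall to 0.244 of the WT level, no change and a rise to 1.34 times that level.

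Isg15 and Isg20 encode effectors. ISG15 is a ubiquitin-like protein that is joined to other proteins, and ISG20 is an exonuclease that degrades RNA. Isg15 (chr4:156199424-156200818) had 39.9, 38.9 and 33.2 normalized counts in the cKO-labelled libraries, against 31.4, 27.0 and 65.6 in WT libraries. The WT libraries lay on both sides of the cKO-labelled ones (log2 change -0.04, SE 0.45, interval -1.02 to 0.94, limma adjusted p = 0.980), and without WT replicate 3 the log2 change was 0.34. Isg20 (chr7:78913396-78920396) had 41.9, 62.8 and 37.7 in the cKO-labelled libraries and 44.9, 77.8 and 61.5 in WT libraries. Replicate 2 was again the highest of each group, and the groups overlapped (log2 change -0.37, SE 0.39, interval -1.21 to 0.47, limma adjusted p = 0.748).

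Ifit1 and Ifit3 lie near each other on chromosome 19 and encode proteins of the tetratricopeptide repeat family. IFIT1 binds RNA that lacks the cell's own cap methylation, and IFIT3 is its partner in human cells. Ifit1 (chr19:34640889-34650009) had 83.4, 135 and 81.8 normalized counts in the cKO-labelled libraries and 88.5, 152 and 81.9 in WT libraries. The highest library was replicate 2 in both groups, the others were nearly level, and the log2 change was -0.09 (SE 0.34, interval -0.82 to 0.65, limma adjusted p = 0.944). Ifit3 (chr19:34583119-34588982) was below the minimum mean and was not tested. It was at 8.36, 0 and 0.845 in the cKO-labelled libraries and at 2.98, 0 and 10.1 in WT libraries, so both groups held a library listed at 0. The spans of Ifit1 and Ifit1bl1 overlap, and Ifit genes have close copies, so reads of these 2 members may be shared with neighbours.

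Bst2 (chr8:71534255-71537472) encodes tetherin, a membrane protein that holds budding virus at the cell surface. It had 505, 514 and 501 normalized counts in the cKO-labelled libraries, against 629, 739 and 629 in WT libraries. All cKO-labelled libraries lay below all WT libraries, which was the case for 9.76% of tested genes, and in either direction the groups lay apart for 17.2%. The means were 507 ± 6.85 in the cKO-labelled and 666 ± 63.8 in WT libraries (SD, n = 3 each), a log2 change of -0.39 (SE 0.17, interval -0.76 to -0.02). Its limma adjusted p was 0.386, and 0.202 in the authors' deposited table. Bst2 is also a marker of plasmacytoid dendritic cells in mice. Of 7 other genes listed for those cells, 5 were in the table, with sums of 997 to 1137 in the cKO-labelled and 767 to 1151 in WT libraries. The log2 changes of these 5 were 0.34 for Spib, 0.29 for Ccr9, 0.18 for Lair1, -0.59 for Pacsin1 and -0.76 for Siglech, their defining receptor, and the groups overlapped for each. Macrophage and monocyte markers, 5 of 7 in the table, summed to 95.9 to 143 in the cKO-labelled and 98.4 to 192 in WT libraries, with none at 0 in every library. Their log2 changes were 0.27 for Cd14, 0.06 for Cd68, -0.08 for Csf1r and -0.90 for Adgre1, the 1 whose groups did not overlap, and Itgam was below the minimum mean. The part of these cells in the Bst2 values was not tested, and in bulk samples fewer cells of a type and less RNA per cell cannot be told apart.

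**Figure D1:**
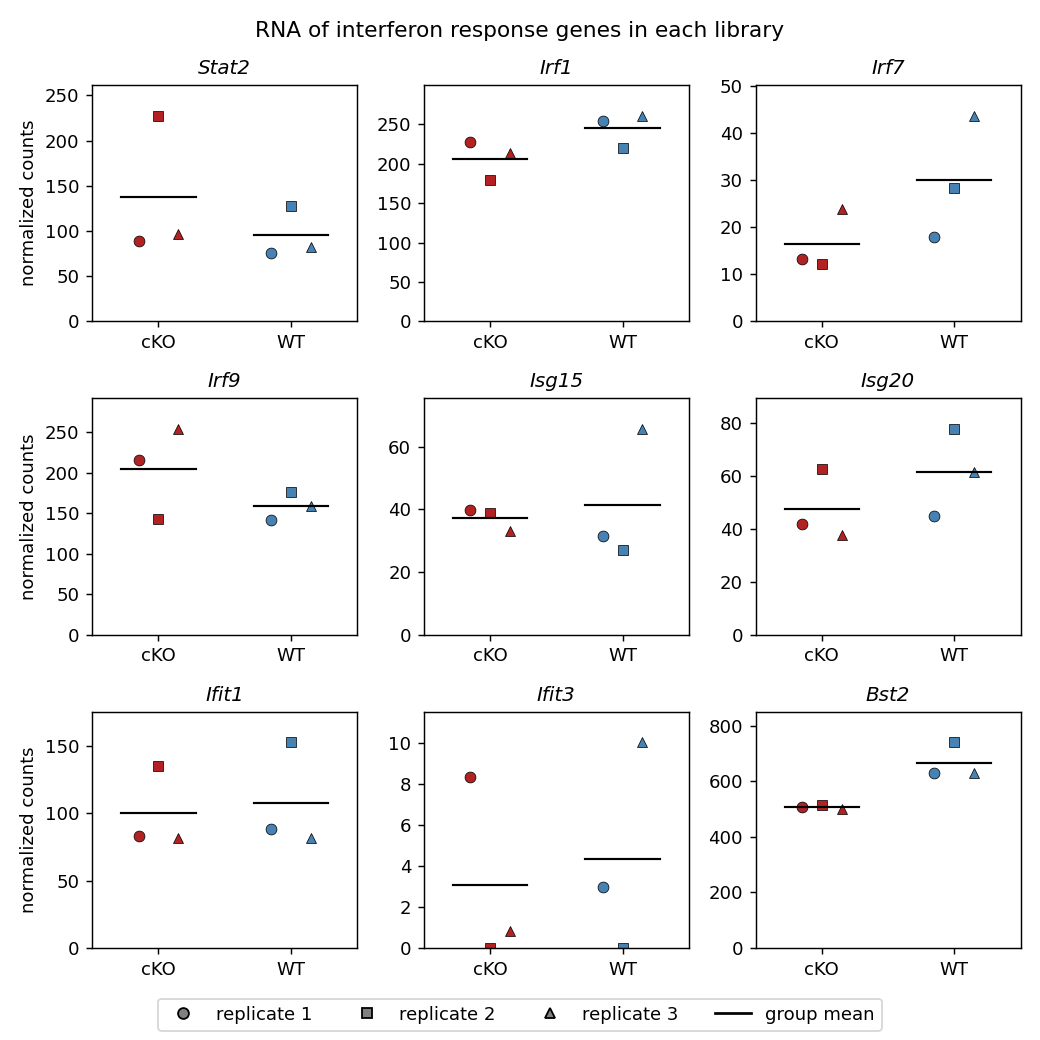
RNA of the 9 members in normalized counts (vertical axes from 0, scaled per gene) in the 3 cKO-labelled libraries (red) and the 3 WT libraries (blue), with marker shapes for the replicate number and bars for group means. Bst2 is the panel in which the groups do not overlap, and Stat2, Isg20, Ifit1 and Bst2 have their highest value in replicate 2 of each group.

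The members did not vary together across the 6 libraries. Over the 28 pairs of the 8 tested members, Pearson's r of the log2 values ran from -0.91, for Stat2 and Irf1, to 0.79, for Isg20 and Ifit1, with 13 pairs above 0 and 15 below. These values share the same 6 libraries and their normalization and are given as a description. Replicate 2 was the highest library of both groups for 4 of the 8 tested members, Stat2, Isg20, Ifit1 and Bst2, a feature looked at after the values were seen and found in 20.4% of all tested genes. The mean of the members' standardized log2 values was -0.33, -0.10 and -0.26 in the cKO-labelled libraries and -0.29, 0.52 and 0.45 in WT libraries. WT replicate 1 thus lay among the cKO-labelled libraries. Among 11937 other genes with a mean of at least 50, those whose log2 values were most like this mean were Serpinb6a (r = 0.997), Slc39a3 (0.987), Mrpl16 (0.986), 2210016L21Rik (0.985) and Gm26704 (0.983). They were picked from a search over many genes in few libraries, so the r values are a description.

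Other genes of the pathway were likewise not called as different. Of 119 listed by role, 106 were in the table, 96 were tested and 0 passed in either direction in limma, while 22 had an unadjusted p under 0.05 (12.1% of all genes did). Positive log2 changes were found for 69 of the 96 and negative ones for 27, while 45.0% of all tested genes had a negative one. The median was 0.18 for the list, against 0.06 over all tested genes. Values of the groups did not overlap for 17 of the 96, and for 17.2% of all tested genes. The authors' deposited table gave an adjusted p for 66 of the list, and 4 of these, or 6.06%, passed, against 5.68% of all genes with one. These were Rnf213 and Shisa5 as higher and Stat4 and Gbp2 as lower in the cKO-labelled libraries. With libraries weighted by quality, 17 of the list were called higher and 3 lower, in a fit that called 1783 genes in all and gave cKO replicate 1 a weight of 7.43, against 0.437 to 1.12 for the other libraries.

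Of the ligands, Ifng, the gene of interferon gamma, was the 1 tested, and it was at 99.0, 28.4 and 1.47 in the cKO-labelled and 24.1, 0 and 38.0 in WT libraries. The WT libraries lay within the range of the cKO-labelled ones but for the one at 0 (log2 change 0.96, SE 1.43, limma adjusted p = 0.837), and without WT replicate 2 the log2 change was -0.69 and without cKO replicate 1 it was -0.22. All 5 tested receptor genes had positive changes, the largest for Ifngr2, a chain of the interferon gamma receptor, at 444, 349 and 457 in the cKO-labelled and 284, 295 and 261 in WT libraries. Its groups did not overlap, and its log2 change was 0.56 (SE 0.20, limma adjusted p = 0.280). Ifnar1, a chain of the type I receptor, had a log2 change of 0.31 (adjusted p = 0.528 in limma). Il10rb, a chain that the type III receptor shares with the interleukin 10 receptor, was at 0.27 (adjusted p = 0.738 in limma).

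Among kinases and STATs the smallest p was that of Stat4, which encodes the factor that interleukin 12 uses to drive Th1 cells. It had 358, 439 and 435 normalized counts in the cKO-labelled libraries and 707, 924 and 789 in WT libraries. The groups lay apart, with a log2 change of -0.97 (SE 0.18, limma adjusted p = 0.0613, and 0.000213 in the authors' deposited table). It passed in limma without WT replicate 1 (0.0397) and without cKO replicate 2 (0.0466). With any other library left out it did not pass (limma adjusted p = 0.157 to 0.379). For Tyk2 the log2 change was 0.71 (adjusted p = 0.304) and for Stat3 it was 0.44 (0.383), and the groups overlapped for both. Of the negative regulators, Ptpn2, a phosphatase that acts on JAK1, had a log2 change of -0.45 (adjusted p = 0.353) with groups that did not overlap. Trex1 was at 0.37 (0.501) and Socs3 at 1.08 (0.579).

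Other IRF family genes had a median log2 change of 0.51 over 9 members, 6 of them positive. Irf2bp2, a partner of IRF2, had 1054, 1074 and 1149 normalized counts in the cKO-labelled and 854, 736 and 716 in WT libraries (log2 change 0.51, SE 0.16, limma adjusted p = 0.203). Irf4, which Th2 cells need, had 2277, 1495 and 2438 in the cKO-labelled and 1607, 1150 and 1299 in WT libraries (log2 change 0.60, SE 0.20, limma adjusted p = 0.245). The first group lay mostly above the second for Irf4, with an overlap at cKO replicate 2. Among sensors of nucleic acid, Ikbke had a log2 change of 0.43 (adjusted p = 0.376), Cgas of -0.49 (0.576) and Ddx58, which encodes RIG-I, of 0.60 (0.666). Without WT replicate 2 the change of Ddx58 was -0.02.

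Of 57 other interferon-stimulated genes tested, 39 had positive and 18 negative changes, from -1.33 to 2.33. Gbp2, a guanylate-binding protein gene induced by interferon gamma, was at 427, 277 and 503 in the cKO-labelled libraries, against 869, 671 and 689 in WT libraries. Rnf213, a large ubiquitin ligase gene, was at 325, 282 and 334 in the cKO-labelled and 118, 148 and 211 in WT libraries. Shisa5, a p53 target gene, was at 4474, 2784 and 5517 in the cKO-labelled and 2760, 2250 and 1783 in WT libraries. The groups did not overlap for any of these 3. They lay apart for 9 of the 57, and for 17.2% of all tested genes. The log2 change was -0.92 for Gbp2 (limma adjusted p = 0.120), 1.01 for Rnf213 (0.121) and 0.88 for Shisa5 (0.130). Shisa5 passed without cKO replicate 2 (limma adjusted p = 0.0284), in a fit that called 151 genes. With any other library left out it did not pass (limma adjusted p = 0.0696 to 0.490).

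**Figure D2:**
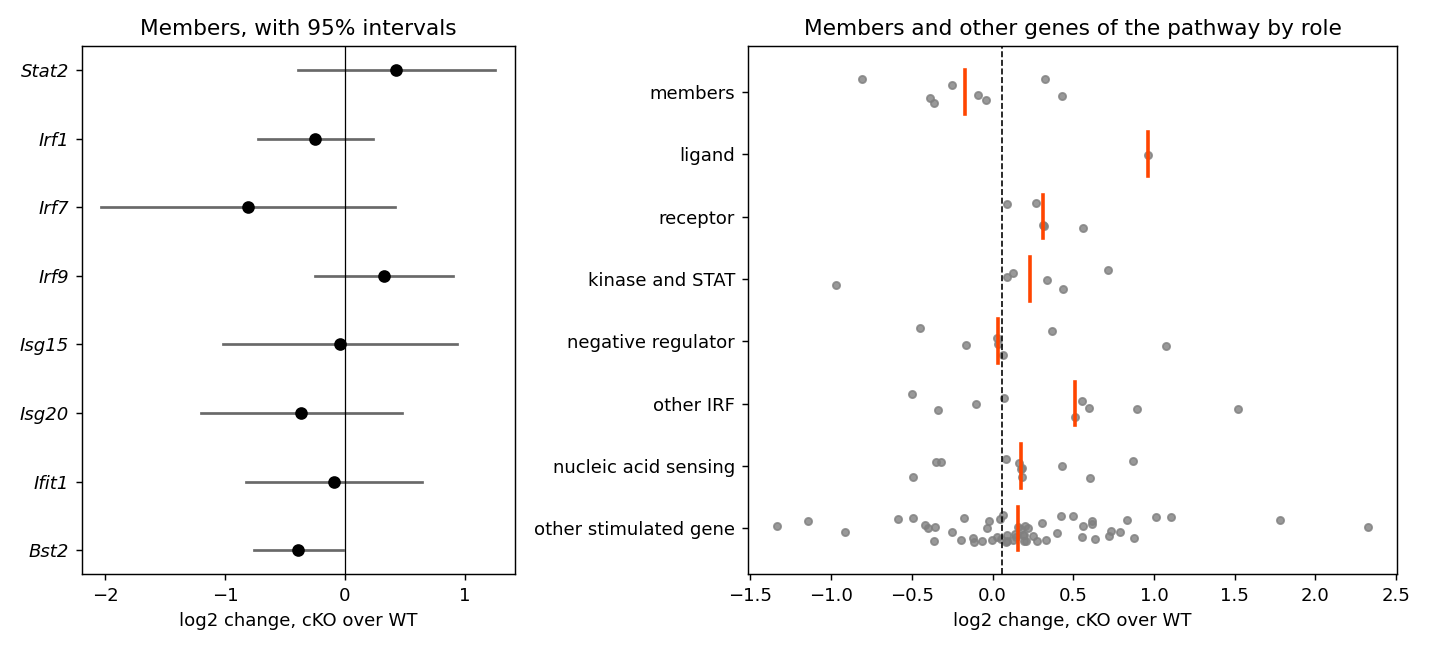
Left, log2 changes (cKO-labelled over WT) of the 8 tested members with 95% intervals from limma, all but that of Bst2 crossing 0. Right, log2 changes of the members and of the 96 other pathway genes by role (points), with the median of each role (orange) and that of all tested genes (dashed, 0.06).

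The starts of 8 of the 9 members lay in open chromatin in every library. Of the 13 member promoter windows 12 were under a peak in all 6 lists, as were 39.4% of all 32851 windows. The remaining window was that of Ifit3, and no list held a peak over that gene or within 5 kb of it. Its ISRE letters were thus outside all peaks, while those of Isg15, Bst2, Stat2 and Ifit1 lay inside a peak in 6 of 6 lists. Ifit3 was also the member whose RNA did not reach the minimum mean. The 17 regions comprised 8 over a start and 9 elsewhere, and 11 of them, including all 8 over a start, had a peak in every library and could be tested. The other 6 were called in 1 list each, with 6.49 to 9.06 tags per 10000000, close to the lowest peaks of these lists (5.08 to 6.01). They lay in or just behind Irf1 (WT replicate 3), in or at the end of Irf9 (cKO replicate 2 for 2 of them and WT replicate 2 for the third), in Isg20 (WT replicate 1) and in Bst2 (cKO replicate 2).

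**Figure D3:**
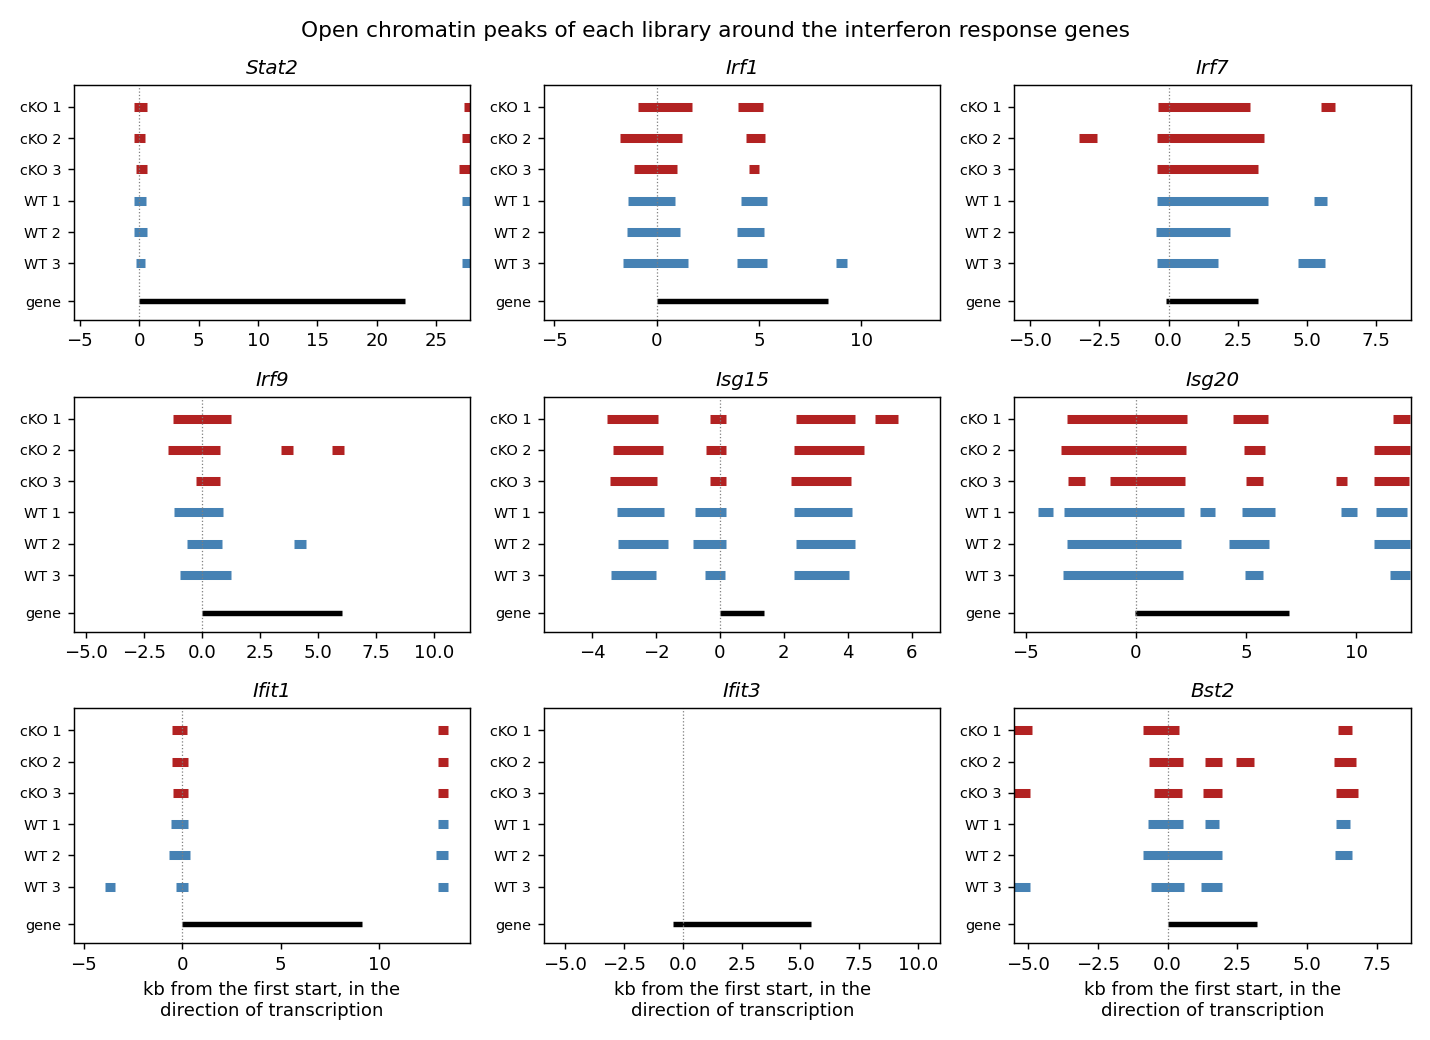
Peaks of each library (red, cKO-labelled; blue, WT) within 5 kb of each member, as distance in kb from its first start in the direction of transcription, with the gene span in black. All 6 libraries have a peak at the start of each member but Ifit3, whose panel holds none.

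One of the 11 tested regions was called different, the one over the starts of Isg20, and it was lower in the cKO-labelled libraries (4.33% of all tested regions were called lower and 3.67% higher). Tags of the highest peak in each region, as scaled by the authors, were quantile-normalized over the 33531 regions with a peak in all 6 lists and tested with limma. By an adjusted p of 0.05, 8% of those regions were called, 1229 as higher and 1452 as lower. With the tags as deposited the split was 459 higher and 3029 lower. The median log2 change was 0.04 at the 11 member regions and 0.02 over all. Of the 11, 7 were positive and 4 negative, and 3 had an unadjusted p under 0.05, against 27.9% of all regions. The quantile-normalized values of the groups lay apart at 3 of the 11, against 33% of all.

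The Isg20 region (chr7:78910011-78915757) spans 5746 bp, also overlaps the gene Aen, and holds the GAS letters printed above. As deposited, its highest peak had 200, 215 and 160 tags per 10000000 in the cKO-labelled libraries and 277, 159 and 256 in WT libraries. These values overlapped, and the lowest of all 6 was that of WT replicate 2, the library with the smallest share of tags in peaks. After quantile normalization they were 182, 190 and 147 in the cKO-labelled libraries and 270, 244 and 263 in WT libraries, and the groups lay apart. The log2 change was -0.59 (SE 0.10, 95% interval -0.80 to -0.37, limma adjusted p = 0.0108), and the region was called with each library left out in turn (adjusted p = 0.00927 to 0.0439). In cKO replicate 3 it was split into 2 peaks, and by the summed tags of both the log2 change was -0.54 (adjusted p = 0.000972, with 7.33% of all regions called lower). The call did not hold under every scaling. The log2 change was -0.61 with cyclic loess (adjusted p = 0.00737, with 5.27% called lower), -0.24 as deposited (0.507), 0.07 with library medians subtracted (0.690) and -0.09 for tags per kb of peak (0.780). Without a mean-variance trend the adjusted p was 0.0746. Isg20 RNA had a log2 change of -0.37 that did not pass.

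Both regions of Irf1 were tested. The one over its starts (chr11:53768229-53771731) had 222, 244 and 223 tags per 10000000 in the cKO-labelled libraries, against 173, 115 and 204 in WT libraries. The groups did not overlap as deposited, but did after quantile normalization, where the log2 change was 0.20 (SE 0.10, limma adjusted p = 0.219). With library medians subtracted it was 0.83 and passed, in a fit where 28% of all regions were called higher. The second region, inside the gene and 3463 bp past the nearer start (chr11:53773936-53775430), had 17.2, 13.5 and 7.98 tags in the cKO-labelled libraries and 23.8, 22.4 and 35.7 in WT libraries. It was lower in every cKO-labelled library as deposited, and its peaks were shorter, at 1.188, 0.921 and 0.500 kb in the cKO-labelled and 1.284, 1.298 and 1.494 kb in WT libraries. After quantile normalization the groups overlapped, with 20.1, 15.3 and 8.93 tags in the cKO-labelled and 17.7, 24.1 and 29.4 in WT libraries. The log2 change was -0.69 (SE 0.31, limma adjusted p = 0.170). It was negative under every alternative in which this region was tested. As deposited it was -1.06 (limma adjusted p = 0.0200), in a fit that called 9.03% of all regions lower and 1.37% higher. For tags per kb of peak it was -0.22 (limma adjusted p = 0.409). Tags grow with peak length, so tags and lengths are not separate measures here. The 7.98 tags of cKO replicate 3 were near the lowest peak of that list (5.7). With peaks of at least 10 tags the region was not tested.

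At the starts of Stat2 and Irf9 no difference was called after quantile normalization. The Stat2 region (chr10:128270026-128271136), which also overlaps Apof, had 99.3, 92.5 and 114 tags per 10000000 in the cKO-labelled libraries and 100, 74.2 and 101 in WT libraries (log2 change 0.05, 95% interval -0.21 to 0.30). The Irf9 region (chr14:55602543-55605244), which also overlaps Rnf31, had 154, 141 and 128 in the cKO-labelled and 143, 84.3 and 138 in WT libraries (log2 change 0.04, interval -0.19 to 0.27). The groups overlapped at both. With library medians subtracted, however, both were called higher, at 0.46 for Stat2 (limma adjusted p = 0.0118) and 0.55 for Irf9 (0.00229), and per kb of peak Stat2 was at -0.40 (0.168). Irf7, whose region covers the whole gene (chr7:141262833-141266870), had 76.6, 86.6 and 86.3 tags in the cKO-labelled and 111, 68.2 and 83.7 in WT libraries (log2 change -0.11, interval -0.39 to 0.16).

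At effector genes, the region over the start and ISRE letters of Isg15 (chr4:156200622-156201647) had 24.8, 26.5 and 18.3 tags per 10000000 in the cKO-labelled libraries, against 35.9, 31.6 and 25.9 in WT libraries. The groups overlapped by cKO replicate 2 and WT replicate 3 as deposited, and after quantile normalization the log2 change was -0.06 (interval -0.58 to 0.47). A taller region 2224 bp past that start, beyond the end of Isg15 and within Agrn and Gm46878 (chr4:156196320-156198594), had 160, 179 and 182 tags in the cKO-labelled and 159, 88.1 and 137 in WT libraries. It did not overlap between groups (log2 change 0.23, SE 0.10, limma adjusted p = 0.148). The Ifit1 region (chr19:34640222-34641294), which also overlaps Ifit1bl1 and Ifit1bl2, had 32.4, 39.2 and 33.8 tags in the cKO-labelled and 37.4, 31.4 and 42.1 in WT libraries (log2 change 0.22, interval -0.18 to 0.61). That over the start of Bst2 (chr8:71535510-71538345) had 81.7, 80.4 and 67.3 in the cKO-labelled and 71.0, 79.7 and 72.1 in WT libraries (log2 change 0.02, interval -0.41 to 0.44). Bst2, the member with RNA values that lay apart, thus had overlapping tags at its start. A second region inside Isg20 (chr7:78917649-78919762) had 31.0, 20.6 and 21.7 tags in the cKO-labelled and 41.1, 28.1 and 23.3 in WT libraries (log2 change 0.04, interval -0.53 to 0.61).

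**Figure D4:**
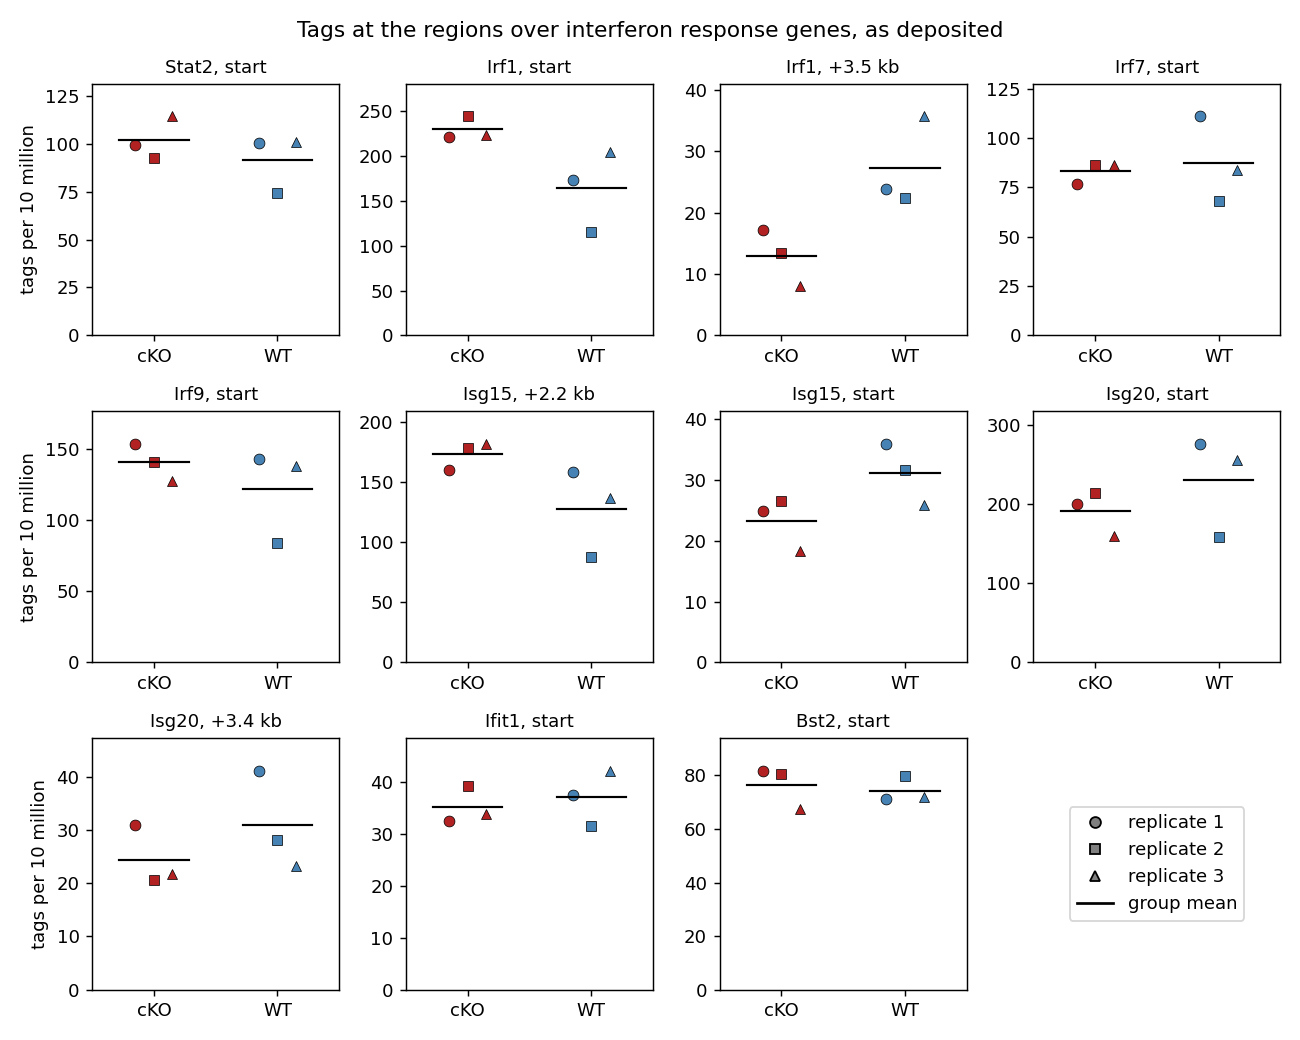
Tags per 10000000 of the highest peak in each of the 11 tested regions, as deposited (vertical axes from 0, scaled per region), in cKO-labelled (red) and WT (blue) libraries, with bars for group means. WT replicate 2 (blue square) is the lowest WT library at 8 of the 11 regions. The groups lie apart at both Irf1 regions and at the Isg15 region 2.2 kb past the start. The share of all regions whose groups lie apart was not counted on tags as deposited. After quantile normalization it was 33%.

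**Figure D5:**
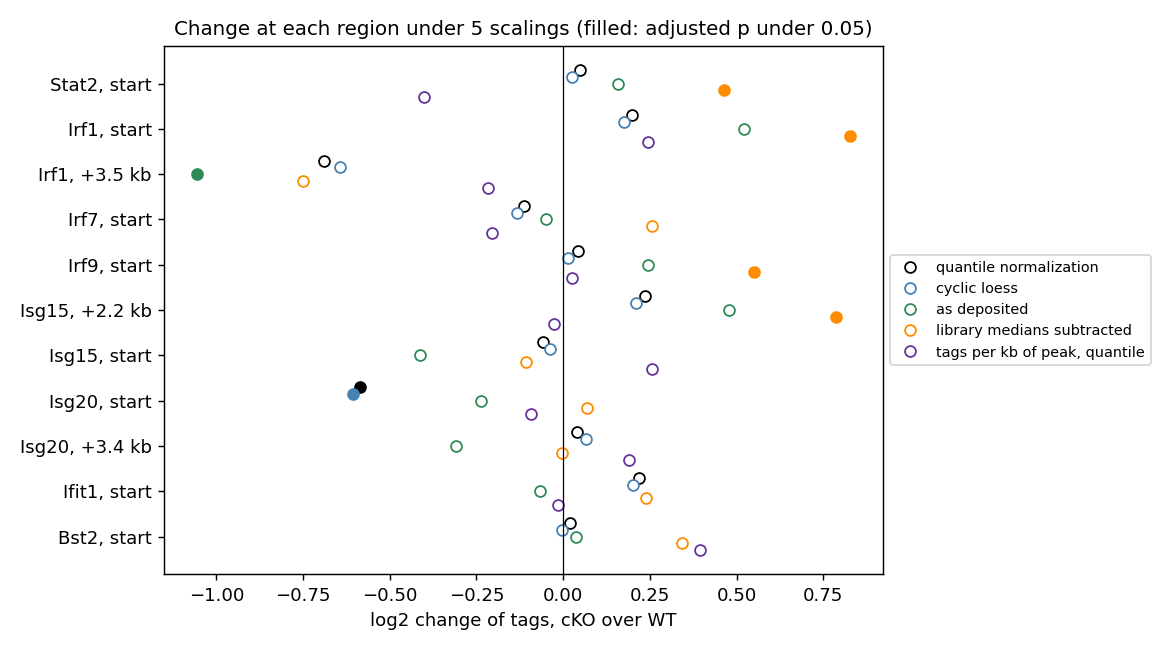
Log2 change of tags (cKO-labelled over WT) at the same regions under 5 scalings, filled where the limma adjusted p was under 0.05. With library medians subtracted 4 regions pass as higher, those at Stat2, Irf1, Irf9 and beyond Isg15. That fit called 28% of all regions higher. The Isg20 start passes as lower with quantile normalization (4.33% of all regions called lower) and cyclic loess (5.27%). The second Irf1 region passes as lower with the tags as deposited (9.03% of all regions called lower).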

How the data were processed

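RNA-seq of 3 cKO-labelled and 3 WT Th2 libraries and ATAC-seq of 3 and 3 others were used, grouped by their titles. The RNA table holds the authors' normalized count signal per gene, as deposited, with their log2 fold changes (here cKO-labelled over WT) and their p-values and adjusted p-values as deposited. Of RNA values above 0, 0.179% were within 0.001 of a whole number, and raw counts were not used here. The submitters' processing notes name HOMER 4.11, Bowtie2 2.3.5.1, RSEM 1.3.3, STAR, edgeR and DESeq2, with no roles given, and the build mm10. Per the file headers, ATAC peaks were called in each library with HOMER in its histone style, with a fragment length of 100, at most 1 tag per bp and a Poisson p threshold of 0.001, and stitched into regions of variable length. Per the file headers, the signal of a peak is its tag count scaled to 10000000 tags per library, so it grows with the length of the peak. The deposited peak score and the deposited clonal fold ratio were not used for any value here.

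RNA was tested with limma 3.58.1 in R 4.3.3 on log2(value + 1), with a mean-variance trend, for genes with a mean of at least 10, adjusted after Benjamini and Hochberg over all genes tested (threshold 0.05). A fold change on this scale understates that of low genes. Peaks that shared at least 1 bp were merged over the 6 lists. Regions with a peak in all lists were tested in the same way on the tags of the highest peak, after quantile normalization. Member regions overlapped a gene's span extended by 1 kb in RefSeq coordinates of GRCm38.p6, the assembly that mm10 stands for. The scripts were tested on simulated data. Named genes were all members and their regions, Nfe2l2, up to 3 genes with the smallest p in each pathway role and the 5 genes most like the members' mean; 1 gene under this rule is not reported here. Members and gene lists were chosen with earlier results of these data known. Alternatives were other pseudocounts, filters, scalings and weights, the replicate number as a block, and leaving out each library.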

Additional observations from a re-analysis of the deposited data

How the results depend on the processing

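No member was called in RNA under any alternative run. Genes called in RNA, 37 as reported, numbered 9 with cyclic loess, 6 without a trend, 1783 with quality weights (943 higher, 840 lower), 526 in the authors' deposited table and 1 to 151 with each library left out. Of the pathway list, 0 as reported, 1 was called with a minimum mean of 50, 1 with a pseudocount of 5, 20 with weights, 4 in the authors' deposited table and 0 to 2 with each library left out. ATAC regions called, 2681 as reported, numbered 611 without a trend, 11223 with medians subtracted (9387 higher, 1836 lower), 4742 by summed tags, 833 per kb of peak and 377 to 2067 with each library left out. Member regions called, 1 as reported and in every leave-one-out fit, numbered 0 without a trend, 4 with medians subtracted (Stat2, Irf1 start, Irf9 and beyond Isg15, all higher) and 0 per kb of peak. As deposited 1 was called, the second Irf1 region in place of the Isg20 start. The causes were not tested.

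With the replicate number as a block, 122 genes were called in RNA, and 1 of the pathway list, Stat4; it changed no call of a member or of its regions. Same-numbered libraries deviated with r of 0.116, 0.206 and -0.0554 in RNA and -0.0234, -0.00762 and 0.004 in ATAC. The main fits took them to share only a number, and the labels do not say whether they share more. Not every library correlated best with its own number. In RNA, cKO replicates 1 and 2 did, while cKO replicate 3 correlated best with WT replicate 1 (r = 0.215).

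Log2 changes that turned sign were, for the Bst2 start region, -0.0026 with cyclic loess and -0.064 by summed tags. For the second Isg20 region they were -0.308 as deposited and -0.0019 with medians subtracted. The Ifit1 region was at -0.066 as deposited and -0.016 per kb. With medians subtracted Irf7 was at 0.258 and the Isg20 start at 0.070. Per kb, Stat2 was at -0.403, the region beyond Isg15 at -0.027 and the Isg15 start at 0.256. With each library left out the log2 change of RNA ran from -0.32 to 0.19 for Ifit1, -0.28 to 0.34 for Isg15, -0.69 to 2.45 for Ifng and -0.022 to 1.17 for Ddx58. That of tags ran from -0.15 to 0.29 for the Bst2 start, -0.027 to 0.094 for Irf9, -0.25 to 0.11 for the Isg15 start, -0.21 to 0.18 for the second Isg20 region and -0.032 to 0.12 for Stat2. With 3 libraries a group, members' RNA standard errors were 0.17 to 0.57 on the log2 scale, which limits the changes that could be called.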
